A study of Homo sapiens with 7 samples.

Results

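The genes described here are the interferon-induced IFIT1, IFIT2, IFIT3 and IFIT5, together with the neighboring pair RSAD2, which encodes viperin, and CMPK2. They were selected by name, and all 6 were found among the 57189 genes counted. RNA was sequenced from RH30, an established cell line of alveolar rhabdomyosarcoma that the labels give as wild type and that the study's methods describe as carrying GFP and luciferase. The data comprised 4 untreated libraries and 3 libraries of cells treated with BV6 at 5 µM for 24 h in complete medium. BV6 is a bivalent Smac mimetic, a small molecule that binds inhibitor of apoptosis proteins and leads to their degradation. Libraries were numbered by the BC label in their titles, which BV6 replicates 2, 3 and 4 share with untreated replicates 2, 3 and 4. Untreated replicate 1 has no treated partner. The labels do not say what BC stands for, and a shared label was taken here as a shared experiment. All libraries came from 1 cell line. The study calls its replicates biological, but the labels do not say whether they were separate cultures, so p-values refer to the spread between these libraries, which may be in part technical.

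IFIT proteins are built of tetratricopeptide repeats and are made in large amounts after interferon or viral RNA is sensed. IFIT1 binds the 5′ end of RNA whose cap lacks ribose methylation and blocks its translation, IFIT2 and IFIT3 form complexes with it and with each other, and IFIT5 binds RNA with a 5′ triphosphate. Viperin is a radical SAM enzyme that converts CTP to a chain-terminating nucleotide, and CMPK2 is a mitochondrial nucleotide kinase that can supply its substrate. These genes are classically switched on through the interferon-stimulated response element (ISRE), a DNA motif bound by factors of the IRF family.

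In GENCODE release 44 for GRCh38, the IFIT genes lie in a row on the plus strand of chromosome 10, in the order IFIT2 (89283694 to 89309271), IFIT3 (89327307 to 89377473), IFIT1 (89392546 to 89406487) and IFIT5 (89414568 to 89421605). RSAD2 (6865557 to 6898239, plus strand) and CMPK2 (6840570 to 6866635, minus strand) overlap head to head on chromosome 2 and share 351 exonic bases on opposite strands. IFIT2 and IFIT3 share 65 and 94 exonic bases with LIPA, which runs through the cluster on the opposite strand. IFIT2 also shares 524 exonic bases, 12.1% of its exons, with an unnamed lncRNA (ENSG00000232110) on the same strand, which counting by strand could not separate. The sources used here do not state whether the counting used strand, so reads from these shared bases cannot be assigned with certainty.

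RefSeq promoter entries for GRCh38.p14 were found for 5 of the 6 genes, all but IFIT2. The 250 bases before the start of each gene's main transcript were searched on both strands for the core of the ISRE, which reads TTTC, any 2 bases and TTTC again, and for the NF-κB consensus. IFIT1, IFIT3 and IFIT5 each held 2 ISRE cores and RSAD2 held 1, whereas 3.02% of all 35116 promoter windows held at least 1 and 0.225% held at least 2. The CMPK2 window held none, and the NF-κB consensus, present in 9.96% of all windows, matched in none of the 9 windows listed for the 5 genes. With no NF-κB match, none could overlap an ISRE match. A further IFIT3 transcript, which starts downstream of the main one, had 2 cores as well, at 94 and 51 bases before its start. The matches at the main starts follow with the ISRE core in capitals, so that the promoters of genes with different responses can be compared. The stretches of IFIT1 and IFIT3 hold no annotated exon. The first core of IFIT5 lies within an exon of LIPA and the second reaches past that exon's end by 1 base, and the core of RSAD2 lies in an exon of other RSAD2 transcripts.
IFIT1, chr10:89392477-89392545, plus strand: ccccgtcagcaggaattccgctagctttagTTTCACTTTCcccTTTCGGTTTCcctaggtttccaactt
IFIT3, chr10:89327811-89327914, plus strand: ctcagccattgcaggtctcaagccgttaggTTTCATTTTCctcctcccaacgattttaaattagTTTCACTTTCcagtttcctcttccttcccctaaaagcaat
IFIT5, chr10:89414518-89414537, plus strand: ttaagTTTCGGTTTCtgaag
IFIT5, chr10:89414544-89414563, plus strand: tttagTTTCGATTTCttaag
RSAD2, chr2:6877622-6877651, plus strand: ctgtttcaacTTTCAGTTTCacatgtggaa

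The core TTTCACTTTC was found in IFIT1 and IFIT3, at 116 and 122 bases before their starts, and TTTCGGTTTC was found in IFIT1 and IFIT5, at 103 and 45 bases. IFIT5 therefore shared a core letter for letter with IFIT1 but had both of its cores within 45 bases of the start. A match describes letters only and does not show that a factor was bound in these cells.

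**Figure D1:**
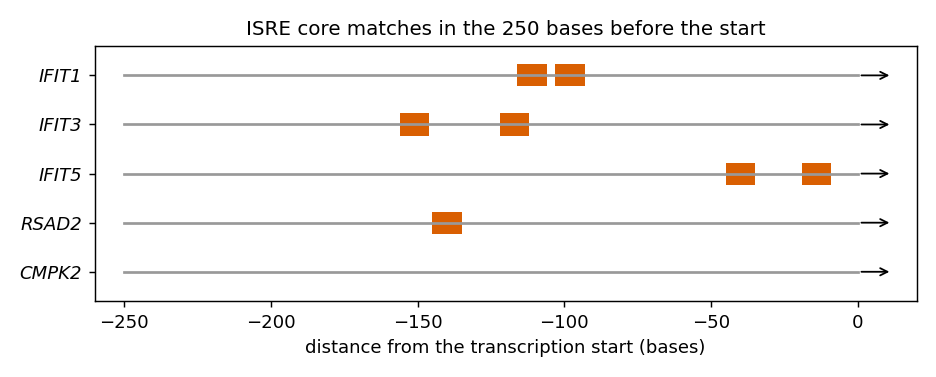
Positions of ISRE core matches (orange boxes, 10 bases each) along the 250 bases before the transcription start (x axis, distance in bases, start at 0) of the 5 genes with a RefSeq promoter entry. IFIT1, IFIT3 and IFIT5 have 2 boxes each, those of IFIT5 nearest to the start, RSAD2 has 1 and CMPK2 none.

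Total counts ranged from 54070030 to 77220882 per library. Levels are given as CPM, the usual counts-per-library-size unit with TMM-scaled library sizes, and 3 counts, taken as the detection floor, corresponded to 0.0389 to 0.0557 CPM. Means are given ± SD over the 4 untreated and the 3 BV6-treated libraries, and log2 fold changes are BV6 over untreated with their standard error (SE). Both conditions were compared by the quasi-likelihood test of edgeR, and a gene was called when its Benjamini-Hochberg adjusted p over all 23124 tested genes was below 0.05. BV6 raised IFIT2, IFIT3 and RSAD2, so that 3 of the 5 members that passed the low-count filter were called, all higher, beside 0.394% of all tested genes. CMPK2 did not pass the filter. RSAD2 passed it through the BV6 libraries, since of its untreated libraries only replicate 4 held more than 10 counts. With the replicate number as a block, which compares libraries of the same experiment, IFIT1 was called as well, and 4 of the 5 were called beside 0.649% of tested genes. In bulk RNA, more responding cells and more RNA per cell cannot be told apart.

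IFIT3 showed the largest change within the family. Its level was 3.21, 3.58, 5.01 and 4.69 CPM in untreated replicates 1 to 4. In BV6 replicates 2, 3 and 4 it was 17.4, 45.7 and 27.8 CPM. Every BV6 library thus lay far above every untreated one, with BV6 replicate 3 the highest and replicate 2 the lowest. The mean rose 7.36-fold, from 4.12 ± 0.865 to 30.3 ± 14.3 CPM (log2 fold change 2.88, SE 0.307, edgeR adjusted p = 0.00574). When any single library was omitted, IFIT3 was still called, with log2 fold changes between 2.46 and 3.17.

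RSAD2 was close to the detection floor in untreated cells and had the largest estimated fold change of the 5 tested genes, although its response was not separated from that of IFIT3. It had 7, 4, 6 and 13 counts in untreated replicates 1 to 4, or 0.0909, 0.0713, 0.0996 and 0.21 CPM. In BV6 replicates 2, 3 and 4 it had 60, 101 and 87 counts, or 1.07, 1.65 and 1.62 CPM. The groups were widely separated, and untreated replicate 4 was the highest of its group. On the log2 scale RSAD2 rose by 3.59 (SE 0.379, edgeR adjusted p = 0.00564), and the estimate stayed between 3.43 and 4.01 and was called whichever library was omitted. Even after a 12.1-fold increase, viperin mRNA remained the rarest among the called members.

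IFIT2 was up-regulated to a smaller extent. Its level was 5.84, 6.34, 10.1 and 7.81 CPM in untreated replicates 1 to 4 and 15, 38.3 and 26.3 CPM in BV6 replicates 2, 3 and 4. The groups did not overlap, and replicate 3 was the highest in both. The mean rose from 7.52 ± 1.91 to 26.5 ± 11.6 CPM, or by 1.82 on the log2 scale (SE 0.301, edgeR adjusted p = 0.0378). This call was close to the threshold. It was lost in 6 of the 7 fits that left out a library, with an edgeR adjusted p of at most 0.149. Among these fits it was kept only without BV6 replicate 2 (edgeR adjusted p = 0.0128). It was also lost in limma-voom, which called 0.402% of tested genes higher. With the replicate block the edgeR adjusted p was 0.00801.

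IFIT1, the best-known member, was not called without the block. Its level was 3.14, 2.58, 5.24 and 4.9 CPM in untreated replicates 1 to 4 and 5.7, 15.6 and 12.1 CPM in BV6 replicates 2, 3 and 4. BV6 replicate 2 was barely above untreated replicate 3, although it exceeded its own partner, untreated replicate 2, by 2.21-fold. Over all libraries its log2 fold change of 1.49 had an SE of 0.35 (edgeR adjusted p = 0.157). With the replicate block the estimate was 1.35, the SE fell to 0.15 and IFIT1 was called (edgeR adjusted p = 0.0101). Without the block, it was called in 0 of the 7 fits with a library omitted, with log2 fold changes between 1.17 and 1.81. DESeq2 called it with an adjusted p of 0.00308, beside 0.564% of genes called higher. It was also called by edgeR without the low-count filter (0.389% of genes called higher) and with the block and a correction for GC content (3.31% of genes called higher).

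IFIT5 was not called with or without the block. It was the most abundant member in every untreated library, at 20.4, 25, 21.2 and 22.9 CPM in replicates 1 to 4, and had 28.5, 28.8 and 21.4 CPM in BV6 replicates 2, 3 and 4. The groups overlapped, as BV6 replicate 4 lay below 2 of the untreated libraries. The log2 fold change was 0.23 with a 95% interval from -0.09 to 0.55 (edgeR adjusted p = 0.728).

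CMPK2, the neighbor of RSAD2, was at the edge of detection. It had 2, 1, 2 and 4 counts in untreated replicates 1 to 4 and 6, 11 and 2 counts in BV6 replicates 2, 3 and 4. The groups overlapped, with higher counts after BV6 in experiments 2 and 3 and a lower count in experiment 4. The summed counts, 9 in untreated and 19 in BV6-treated libraries, gave a ratio of 3.15 per normalized library size (95% exact interval 1.36 to 7.89, counting error only). Of all counts from 1 to 10 in the table, 60% were even, so both mates of a read pair may have been counted. With each count halved and rounded up, the CMPK2 sums were 5 and 10, and the interval of the ratio widened to 0.928 to 11.1, which includes 1. Fitted without the low-count filter, CMPK2 had a log2 fold change of 1.56 (edgeR adjusted p = 0.781). A change of CMPK2 was not detectable beyond the spread between libraries at this depth.

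**Figure D2:**
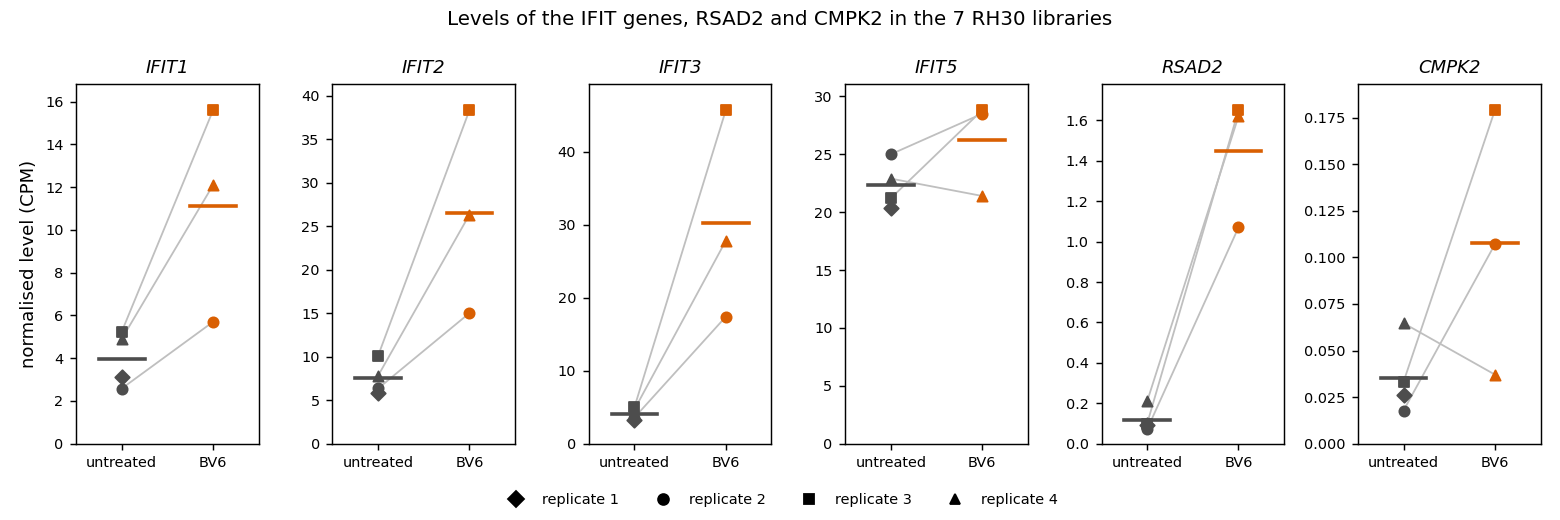
Normalised level (y axis, CPM, each panel with its own linear scale from 0) of the 6 genes in the 4 untreated (gray) and 3 BV6-treated (orange) RH30 libraries. Symbols mark the replicate number, gray lines join libraries of the same experiment, and horizontal bars are group means. The groups are separate for IFIT1, IFIT2, IFIT3 and RSAD2 and overlap for IFIT5 and CMPK2.

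Within each experiment, IFIT1, IFIT2, IFIT3 and RSAD2 were higher after BV6 in 3 of 3 pairs. The ratio of BV6 to untreated CPM was 4.86, 9.12 and 5.94 for IFIT3 in experiments 2, 3 and 4. It was 2.36, 3.79 and 3.36 for IFIT2, and 2.21, 2.97 and 2.47 for IFIT1. These 3 genes shared 1 order, with experiment 3 responding most and experiment 2 least. RSAD2 did not follow it, with ratios of 15, 16.5 and 7.69 in experiments 2, 3 and 4 that rest on 4, 6 and 13 untreated counts. For IFIT5 the ratios were 1.14, 1.36 and 0.934. For any 1 gene, an exact two-sided permutation test of 4 libraries against 3 cannot give a p below 0.0571, the value obtained for IFIT1, IFIT2, IFIT3 and RSAD2, whose groups did not overlap. Among all tested genes, 4.94% had non-overlapping groups with BV6 higher.

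**Figure D3:**
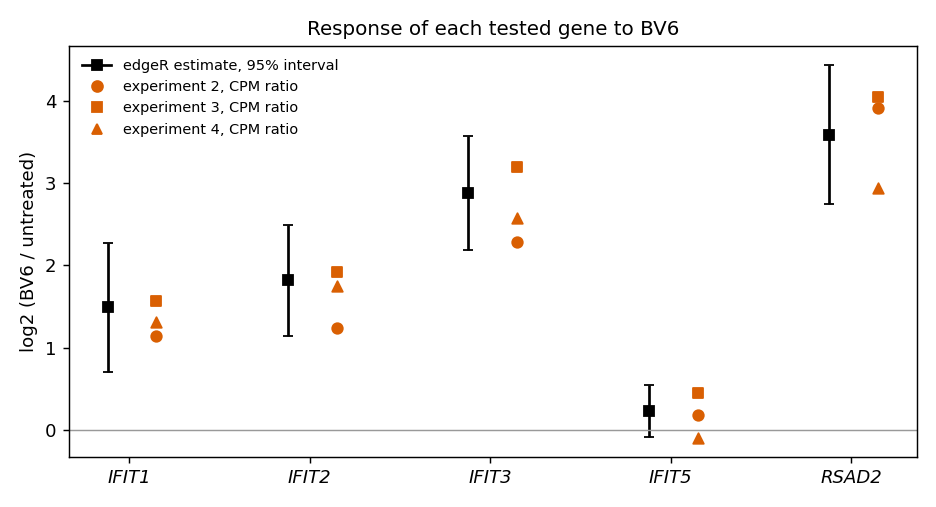
Response of the 5 tested genes to BV6 on a log2 scale (y axis, log2 of BV6 over untreated). Black squares are edgeR estimates over 7 libraries with 95% intervals, and orange symbols are CPM ratios within experiments 2, 3 and 4. IFIT3 and RSAD2 are highest, IFIT1 and IFIT2 are lower, and the interval of IFIT5 includes 0.

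Whether the members responded to different extents was examined from the log2 ratio of 2 genes within the same library, after adding 0.05 CPM, for 15 pairs. In 9 pairs, or 7 of the 10 without the sparsely counted CMPK2, the ratios of BV6 and untreated libraries did not overlap, and each of these had the smallest p the design allows (0.0571, exact permutation test, two-sided, adjusted p = 0.0952 over the 15 pairs). None can therefore pass a threshold of 0.05, and the sizes are given as a description. The ratio of IFIT3 to IFIT5 shifted by 2.56 on the log2 scale, from -2.45 ± 0.33 to 0.11 ± 0.72. IFIT2 and IFIT3, whose products form complexes, also changed relative to each other. Their log2 ratio went from 0.85 ± 0.11 to -0.19 ± 0.09, a shift of -1.04 that was large against a small spread, and leaving out any 1 library kept it between -1.09 and -0.99. IFIT1 and IFIT2 differed less in response, with a shift of -0.32 and overlapping ratios (p = 0.114, exact permutation test). The ratio of IFIT1 to IFIT5 shifted by 1.2, with overlapping groups (p = 0.171, exact permutation test), and that of IFIT3 to RSAD2 by -0.41, also with overlap (p = 0.286, exact permutation test). RSAD2 exceeded IFIT1 and IFIT2 by 1.77 and 1.45 on this scale, but with 1 CPM added in place of 0.05 these differences turned to 0.11 and 0.5 in the other direction and that of IFIT3 against RSAD2 to 1.4, since RSAD2 was below 1 CPM in untreated cells.

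The levels of different genes were compared as CPM per kilobase of merged exons. In untreated cells, IFIT5 led with 5.12 ± 0.475, followed by IFIT2 with 1.74 ± 0.442, IFIT1 with 0.86 ± 0.282 and IFIT3 with 0.813 ± 0.171. RSAD2 followed at 0.0208 ± 0.0111 and CMPK2 at 0.00807 ± 0.00467 CPM per kilobase. The ranges of IFIT1 and IFIT3 overlapped, as did those of RSAD2 and CMPK2, and the other neighbors in this order were separate. After BV6, IFIT2 (6.13 ± 2.69), IFIT5 (6 ± 0.961) and IFIT3 (5.98 ± 2.82 CPM per kilobase) had overlapping ranges and no order. IFIT1 was lower, at 2.41 ± 1.09, followed by RSAD2 at 0.255 ± 0.0575 and CMPK2 at 0.0246 ± 0.0162, each separate from the next.

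As a share of the summed CPM per kilobase of the 4 IFIT genes, IFIT5 made up 60.4% ± 6.82 in untreated and 31.3% ± 11.5 in BV6-treated libraries, where the lowest untreated share (52%) exceeded the highest with BV6 (44.5%). IFIT3 made up 9.47% ± 1.14 and 28.2% ± 4.49, and its groups did not overlap either. Both differences had the smallest p the design allows (0.0571, exact permutation test, two-sided). The share of IFIT1 was 9.97% ± 2.58 in untreated and 11.4% ± 2.73 in BV6-treated cells, with overlapping values (p = 0.514, exact permutation test).

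**Figure D4:**
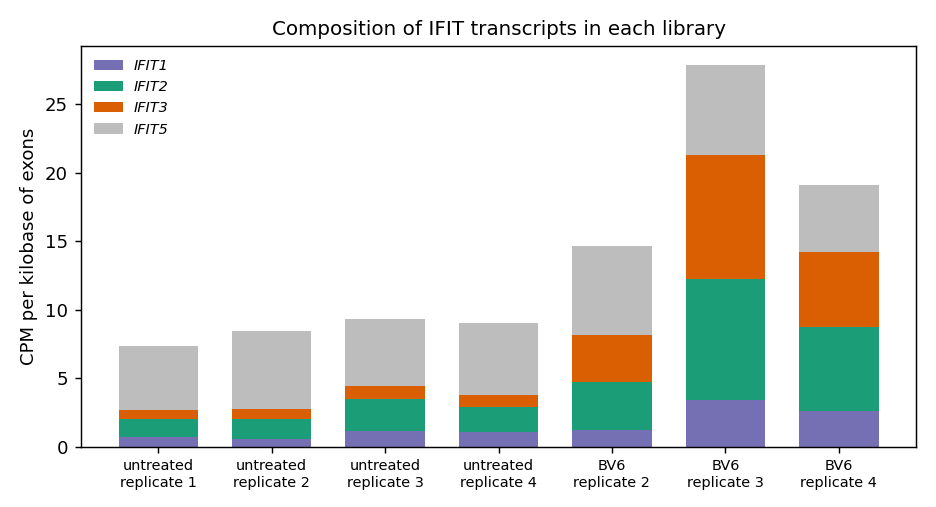
Stacked levels of IFIT1, IFIT2, IFIT3 and IFIT5 (y axis, CPM per kilobase of merged exons) in each of the 7 libraries. The gray IFIT5 block is of similar height in every library, while the IFIT2 and IFIT3 blocks are taller in the 3 BV6 libraries.

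The members also varied within groups. After subtracting each group's mean, log2 levels of IFIT2 correlated with IFIT3 (Pearson r 0.978) and with IFIT1 (0.941) over the 7 libraries, as a description of libraries that share depth and preparation. For IFIT5 these values lay between -0.294 and 0.038 with the other IFIT genes. The 6 genes whose level over the 7 libraries was most like the mean standardized profile of the 5 tested members were IMMP2L (Pearson r 0.996), APOL1 (0.989), UBN2 (0.989), DDX58 (0.984), SLC4A4 (0.984) and ZNF267 (0.982). DDX58 encodes the RNA sensor RIG-I, and APOL1 encodes an apolipoprotein inducible by interferon. APOL1 averaged 6.44 ± 0.815 CPM without and 15.1 ± 4.38 CPM with BV6, and SLC4A4, a bicarbonate cotransporter, 0.134 ± 0.0493 and 0.822 ± 0.305 CPM. This profile holds the difference between the conditions, so these genes are given as a description. When the group means were subtracted first, the 6 most similar genes were others. They were STX12 (0.999), CCDC77 (0.997), PRKAG1 (0.996), ZFYVE16 (0.995), ZNF451 (0.994) and EFR3A (0.993), with log2 fold changes between 0 and 0.28. These are the highest values among all tested genes over only 7 libraries, so values near 1 can arise from selection alone. The profile also holds IFIT5, which did not follow the other IFIT genes within groups.

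The wider interferon system was described with lists written by hand. Of 22 sensors and adaptors that lead to interferon production, 19 were tested and 3 were called, all higher, beside 0.394% of tested genes. An unadjusted edgeR p below 0.05 was found for 5 of the 19, beside 8.39% of all tested genes. In 6 the groups did not overlap, with BV6 higher, beside 4.94% of tested genes. IFIH1, which encodes the double-stranded RNA sensor MDA5, rose from 0.213 ± 0.0963 to 3.46 ± 1.48 CPM. Its estimate of 4.02 on the log2 scale (SE 0.411, edgeR adjusted p = 0.0049) was nominally above that of any tested member. That of RSAD2 was 3.59 (SE 0.379), and the difference was not tested. The lowest untreated count of IFIH1 was 9, so it was not tested where at least 10 counts were required in every sample. DDX58 rose from 8.2 ± 0.706 to 21.6 ± 7.47 CPM (edgeR adjusted p = 0.0263) and stayed called in 2 of the 7 fits with a library omitted, those without BV6 replicate 2 or 3. IRF1, a transcription factor that can bind the ISRE, rose from 17.5 ± 3.24 to 36.8 ± 8.27 CPM (edgeR adjusted p = 0.0478) and stayed called in 1 of these fits, that without untreated replicate 2. CGAS, the DNA sensor, averaged 63.9 ± 8.16 CPM without and 84.7 ± 10.8 CPM with BV6 (edgeR adjusted p = 0.392). MAVS, the adaptor of both RNA sensors, had a log2 fold change of -0.01 (edgeR adjusted p = 0.992).

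Interferon mRNAs themselves were at or near the floor. None of 22 interferon genes passed the low-count filter, and the highest count of any in a library was 14. IFNB1, the first interferon made by most cells that are not leukocytes, had 0 counts in all 7 libraries, where the floor lay at 0.0389 to 0.0557 CPM. If both mates of a pair were counted, 0 counts would allow a level somewhat above this floor. The summed level of the 22 genes was 0.221 to 1.06 CPM in untreated and 0.801 to 1.32 CPM in BV6-treated libraries, with overlap, and near-identical IFNA paralogs make single counts uncertain. In 2 of the 22, named after their values were seen, the groups did not overlap. Among tested genes 4.94% had non-overlapping groups with BV6 higher, and no such share was computed for untested genes. IFNA17 had 0 counts in all untreated libraries and 4, 4 and 3 in BV6 replicates 2, 3 and 4, and IFNA4 had 0 to 4 and 5 to 8 counts. These counts lie near the floor and both mates of a pair may have been counted, so no induction can be read from them. Of 19 receptors and JAK-STAT-IRF factors, 18 were tested and 0 were called by edgeR, while 4 had an unadjusted p below 0.05, compared with 8.39% of all tested genes, and 1 was called by DESeq2, beside 0.564% of genes called higher. Their median log2 fold change was 0.19, against -0.014 over all tested genes. IRF2, a factor that represses many ISRE-driven genes, averaged 7.88 ± 1.37 CPM without and 14.6 ± 1.77 CPM with BV6 (edgeR adjusted p = 0.0722). The interferon receptor genes IFNAR2 and IFNAR1 had log2 fold changes of 0.45 and 0.29 (edgeR adjusted p = 0.193 and 0.452), and IFNGR2 had 0.29 (edgeR adjusted p = 0.557). PTPN11, a phosphatase and the most abundant gene of this list by the same mean, had 0.06 (edgeR adjusted p = 0.917).

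Of 49 other interferon-stimulated genes, 44 were tested, with a median log2 fold change of 0.32 and positive values for 36. Over all tested genes the median was -0.014, and 11020 of 23124 values were positive. An unadjusted edgeR p below 0.05, in either direction, was found for 15 of the 44, beside 8.39% of all tested genes. The groups did not overlap for 6 with BV6 higher, beside 4.94% of tested genes, and for 2 with BV6 lower. Negative values were found for 8 of the 44, among them IFITM2 (-0.41) and IFITM1 (-0.36), named after their values were seen. Neither was called (edgeR adjusted p = 0.283 and 0.577). Without the block only PARP14, an ADP-ribosyltransferase, was called, at 28 ± 1.61 CPM without and 53.3 ± 12.1 CPM with BV6 (edgeR adjusted p = 0.0363). Its call was lost in 5 of the 7 fits with a library omitted, all but those without BV6 replicate 2 or 3. With the replicate block, 4 were called, all higher, beside 0.649% of tested genes. These were PARP14, OASL, DDX60 and IFI44, the last of which is named after its values were seen. With the block, OASL rose by 2.39 on the log2 scale (edgeR adjusted p = 0.0133), DDX60, a cytosolic helicase, by 1.4 and IFI44 by 0.94 (both edgeR adjusted p = 0.00801). OAS2, a synthetase activated by double-stranded RNA, averaged 0.225 ± 0.107 CPM without and 0.662 ± 0.0722 CPM with BV6 (edgeR adjusted p = 0.168). ADAR, an RNA-editing enzyme and, by the mean over all 7 libraries, the most abundant of the genes not called, had a log2 fold change of 0.16 (edgeR adjusted p = 0.764).

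Genes next to the members were not called. Of 14 counted genes that lie within 200 kb of a member, 4 had enough counts to be tested, 0 were called by edgeR and 0 had an unadjusted p below 0.05. LIPA, the lysosomal acid lipase gene that spans the IFIT cluster on the opposite strand, averaged 47.3 ± 6.18 CPM without and 55.6 ± 8.1 CPM with BV6 (edgeR adjusted p = 0.721). SLC16A12 (-0.17), PANK1 (0.1) and RNF144A (-0.2) had log2 fold changes near 0, with edgeR adjusted p between 0.717 and 0.881. IFIT1B, the paralog between IFIT3 and IFIT1, had 0 counts in the untreated and at most 2 in the BV6-treated libraries, and the lncRNA NRIR, 106 bases from CMPK2, had at most 1.

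The muscle identity of the cells was visible in both groups. MYOD1, the myogenic master factor, averaged 344 ± 86.9 CPM without and 251 ± 89.6 CPM with BV6, and DES, which encodes desmin, 768 ± 114 and 568 ± 193 CPM. Of 13 muscle and rhabdomyosarcoma markers, 12 were tested, and MYF6, with 0 to 5 counts, was not. The log2 fold change was negative for 9 of the 12 and positive for 3. Its median was -0.35, against -0.014 over all tested genes. Without the block, 0 were called by edgeR and 3 had an unadjusted p below 0.05, beside 8.39% of all tested genes. With the block, CHRND, an acetylcholine receptor subunit gene, was called lower, beside 0.294% of tested genes. The summed level of 15 leukocyte markers was 24.3 to 32.1 CPM in untreated and 17.4 to 32.8 CPM in BV6-treated libraries. None of these markers was at 0 in every library, and of the 8 tested, 0 were called by edgeR and 0 had an unadjusted p below 0.05. PTPRC, the pan-leukocyte marker, averaged 0.378 ± 0.251 CPM without and 0.466 ± 0.305 CPM with BV6. The most abundant were CSF1R, at 12.7 ± 4.21 CPM without and 14.4 ± 5.29 CPM with BV6, and NKG7, at 9.79 ± 1.6 and 6.82 ± 2.52 CPM. Of 8 stromal and endothelial markers, 5 were tested and 0 were called by edgeR, with 3 at an unadjusted p below 0.05, beside 8.39% of all tested genes. Their summed level was 158 to 183 CPM without and 133 to 164 CPM with BV6, and its part in the results was not tested.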

How the data were processed

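Stranded, poly(A)-selected RNA of 7 RH30 samples was sequenced in paired-end mode. The authors mapped the reads to GRCh38 with STAR 2.6.1d and deposited raw counts per gene, for which their own model merged all isoforms of an Ensembl gene. The counting program, its use of strand and whether both mates of a pair were counted are not given in the sources used here. Counts summed to 54070030 to 77220882 per library. Every total was above the highest number of reads that the study states for a library, so both mates may have been counted.

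The deposited counts were fitted by edgeR 4.0.16 in R 4.3.3, with filterByExpr (minimum count 10), TMM factors, glmQLFit and glmQLFTest, on condition only. Alternatives used limma 3.58.1 and DESeq2 1.42.0, with Benjamini-Hochberg adjustment over all tested genes. The file was taken as one of unnormalized counts, and no column was left out. Each SE is the absolute log2 fold change divided by the square root of F. Coordinates and exon lengths come from GENCODE release 44, matched by symbol (36327 genes) or an older symbol (870).

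The genes described, the gene lists and the tests were chosen with earlier results of these data known. Genes named beyond the 6 members were, by rule, the 4 smallest p and the most abundant uncalled gene of each list of the interferon system, tested genes within 200 kb, and the 6 with the most similar profile. For muscle and leukocyte markers, defining genes are shown instead, with the most abundant leukocyte markers added. CHRND was named for its call with the block and MYF6 because it was not tested. Stromal and endothelial markers are given as a list only.

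BC labels in the titles, taken here as experiment labels, link libraries 2, 3 and 4 of both groups. Among these 6 libraries, deviations from group means correlated at 0.515, 0.322 and 0.197 within experiments 2, 3 and 4 and at -0.174 on average between experiments. Deviations of 3 libraries from their mean cancel out, so the value between experiments follows largely from the others and is no separate evidence of pairing. With untreated replicate 1 included in the means, the value for experiment 4 was 0.085. The experiments were treated as pairs, and the fit with this replicate block is given where it changes a call.

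In a test on simulated data, where 200 genes carried a log2 change of 2, edgeR recovered 184 with 10 false calls among 22668 genes, the block 181 with 4, and DESeq2 183 with 26 among 23124. The simulated counts held no difference between experiments, so they do not show how the block performs on paired libraries. Alternatives were DESeq2, RLE factors, no filter, at least 10 counts in every sample, the replicate block over 7 or 6 libraries, limma-voom, halved counts, the block with a GC correction (loess, span 0.5), and each library left out.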

Additional observations from a re-analysis of the deposited data

Results flagged for a closer look

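Among 49 genes checked for an untreated library far from the other 3, a check that flags about 1 in 20 groups by chance, 2 genes were picked out and no member was among them. PARP14 was at 30.4 CPM in untreated replicate 3, with the other untreated libraries between 26.9 and 27.4 CPM, a gap that filled 0.854 of the range. The leukocyte marker PTPRC was at 0.753 CPM in untreated replicate 1 and between 0.226 and 0.285 CPM in the rest (0.889 of the range).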

How the results depend on the processing

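The 5 tested members kept the direction of their change in all 79 estimates from the alternative fits, and IFIT3 and RSAD2 kept their calls in each fit that tested them. With at least 10 counts required in every sample, RSAD2 was not tested. The called members were then IFIT2 and IFIT3, among 99 genes called in all. IFIT1 gained a call with DESeq2 (log2 fold change 1.48), without the low-count filter (1.49), with the replicate block over 7 libraries or over the 3 pairs only (both 1.35) and with the block and a GC correction (1.33). IFIT2 lost its call with limma-voom (1.76), and with a library left out its log2 fold change lay between 1.46 and 2.11. The block changed no call of the other members. The number of all genes called was 408 with DESeq2, 242 without the filter, 218 with the block, 341 with the block over pairs only and 1188 with the block and GC correction, against 104, and 38 to 89 with a library left out. Of these, 593 were higher and 595 lower with the block and GC correction, 150 and 68 with the block, and 91 and 13 without either. In the same order, 3, 4, 4, 4 and 10 other interferon-stimulated genes were called against 1, and 0 to 1 with a library left out. The sensor list gave 6 calls with the block and GC correction against 3, and 1 to 2 with a library left out. The receptor and JAK-STAT-IRF list gave 1 call with DESeq2, without the filter and with the block over pairs only, and 3 with the block and GC correction, against 0. With 1 CPM added, the differences in response of IFIT1, IFIT2 and IFIT3 against RSAD2 and of IFIT5 against CMPK2 reversed to 0.11, 0.5, 1.4 and 0.12. With the longest transcript as length, IFIT3 in untreated cells had 1.03 CPM per kilobase, above IFIT1. The causes were not tested. RSAD2 and CMPK2 had 13 counts or fewer in untreated libraries, which limits their precision.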
